A study of Homo sapiens with 9 samples.

Results

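KO1 and KO2 are monoclonal lines of H1299, an established human cell line labelled as lung adenocarcinoma, in which BCKDK was disrupted by CRISPR editing. Each line was grown from a single cell after limiting dilution, so KO1 is 1 clone and KO2 is 1 clone. Both carry the same genotype label, BCKDK Knockout. RNA was sequenced in 3 libraries of KO1 and 3 of KO2, which are 6 of the 9 libraries of the series. The other 3, called Vector, are H1299 cells labelled wild type that were transduced with the lentiCRISPR v2 plasmid. Vector is not described as monoclonal and is used here only to show where the controls lie beside each clone. No treatment or time point is labelled. The comparison asks which functions differ between clones that share an edited gene. It sets 1 clone against 1 other, so effects of cloning, of the edit itself and of growth conditions cannot be told apart. Whether the replicate libraries were made from separate cultures is not labelled. The p-values rest on how far replicate libraries differ, and that may be technical variation alone.

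BCKDK encodes the kinase that phosphorylates and inactivates the branched-chain ketoacid dehydrogenase complex, the committed step in the breakdown of leucine, isoleucine and valine. A monoclonal line carries forward whatever chromosome copies, chromatin states and expression levels its founder cell had. Cancer lines such as H1299 have unstable, aneuploid genomes, and sister clones of such a line can differ in many genes besides the edited one.

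Expression is given as deposited in FPKM, the reads of a gene scaled to the length of its exons and to the depth of its library. Differences are KO2 minus KO1 in log2(FPKM + 1), so 1 unit is close to a doubling for a well-expressed gene and less for a low one. A gene is called when limma's test over all genes gave a Benjamini-Hochberg adjusted p under 0.05. Recovered reads ran from 16838601 to 17090445 in KO1 and from 16267829 to 16654780 in KO2. KO2 replicate 3 stood apart: 9.77% of its reads came from mitochondrial genes, against 5.94% and 5.99% in the other KO2 libraries and 6.13% to 6.44% in KO1. The chi-square per degree of freedom over genes was 2.6 between KO2 replicates 1 and 2, and 48.97 and 45.37 between each of them and replicate 3. Within KO1 it ran from 2.44 to 5.4. Calls and lists were therefore recomputed without KO2 replicate 3, and the counts of most lists without it follow the main ones. Vector replicate 3 was as far from its own group, at 52.58 and 44.34, against 6.84 between Vector replicates 1 and 2. It is kept in every Vector mean, so places relative to Vector are less certain.

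BCKDK was expressed at 1.91, 2.06 and 1.67 FPKM in the KO1 libraries and at 0.628, 0.576 and 0.287 FPKM in KO2, against 13.7, 12.9 and 17.5 FPKM in Vector. Both clones lay below every Vector library, and all KO2 libraries lay below all KO1 libraries. The difference between the clones was -0.95 ± 0.13 (SE; adjusted p = 0.00209). The RNA level does not show how much functional kinase each clone makes. Of the other genes in the series title, HK2, which traps glucose in the cell as glucose 6-phosphate, read 15.3, 15.7 and 14.2 FPKM in KO1 and 7.03, 6.86 and 6.99 FPKM in KO2. The difference was -1.01 ± 0.07 (adjusted p = 0.000138), and Vector at 14.3, 12.5 and 16.9 FPKM lay near KO1. MYC, a growth-promoting transcription factor, read 63.5, 57.1 and 54.7 FPKM in KO1 and 53.6, 50.9 and 26.1 FPKM in KO2. The clones did not overlap, as was so for 53.7% of all genes tested. The difference of -0.48 ± 0.27 was not called (adjusted p = 0.202), and the lowest value came from KO2 replicate 3. BCLAF1, an RNA-processing and transcription-associated protein, gave -0.09 ± 0.09 (adjusted p = 0.488). Without KO2 replicate 3 its difference was called at -0.18 (adjusted p = 0.00808), and with an equal sum of FPKM it was 0.02 and not called.

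Of 16237 genes tested, 2836 (17.5%) were called higher and 3469 (21.4%) lower in KO2 than in KO1, which is 38.8% in either direction. The median difference over all genes tested was -0.02, and the median size of a called difference was 0.59. Differences of at least 1 log2 unit were found in 554 of the higher and 524 of the lower genes, and of at least 2 units in 56 and 63. Without KO2 replicate 3 the counts were 3551 higher and 4418 lower (49.1% in either direction). Of the 6305 calls, 6096 (37.5% of all genes tested) were also called in the same direction without that library, 209 were lost and 0 turned. Leaving out another library lowered the counts instead, most of all KO1 replicate 2, without which 1904 genes were called higher and 2300 lower. Among the calls of at least 1 log2 unit, 542 of the 554 higher and 516 of the 524 lower genes were also called without KO2 replicate 3. The balance between the directions depended on the scaling. With every library scaled to an equal sum of FPKM, 3473 genes were called higher and 2344 lower, so that 59.7% of calls were higher against 45.0% with the deposited scaling. Protein-coding genes were called in 46.1% of 11639 tested, long intergenic RNAs in 27.2% of 749 and processed pseudogenes in 14.6% of 857. Levels of these classes differ, and the part of that in the shares was not tested.

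**Figure D1:**
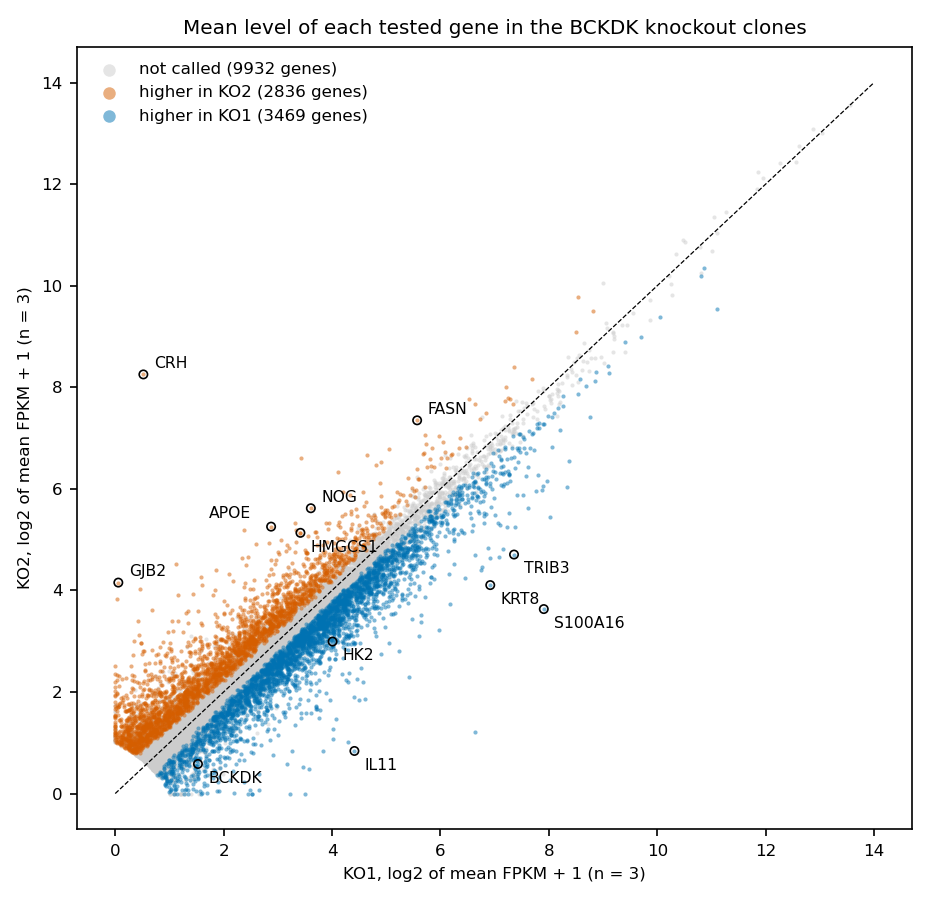
Mean level of each of the 16237 tested genes in KO1 (x axis) and KO2 (y axis), both as log2 of the mean FPKM plus 1 over 3 libraries; the dashed line marks equal levels. Colored points are the 2836 genes called higher and the 3469 called lower in KO2, and the circled genes include CRH, far above the line, and S100A16, far below it.

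The gene with the largest difference was CRH, which encodes corticotropin-releasing hormone, the hypothalamic peptide that drives the pituitary stress axis. It read 0.284, 0.478 and 0.537 FPKM in the KO1 libraries and 344, 343 and 226 FPKM in KO2, with Vector between them at 172, 147 and 161 FPKM. The difference was 7.71 ± 0.18 (adjusted p = 1.18e-05), and the lowest KO2 value was that of replicate 3. GJB2, the gap junction protein connexin 26, read 0.0492, 0.0483 and 0.0232 FPKM in KO1 and 18.9, 17.4 and 14.1 FPKM in KO2 (difference 4.09 ± 0.11, adjusted p = 1.19e-05). In Vector it was also low, at 0.263, 0.302 and 0.134 FPKM, so the level in KO2 was far above both other groups. PTP4A3, a phosphatase linked to metastasis, read 1.31, 1.09 and 1.11 FPKM in KO1 and 23.7, 24 and 18.1 FPKM in KO2 (difference 3.39). LGR4, a receptor for R-spondins that strengthens WNT signalling, read 0.277, 0.349 and 0.411 FPKM in KO1 and 8.84, 9.55 and 10.3 FPKM in KO2.

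The other genes most higher in KO2 included several signalling genes. NOTCH3, a Notch receptor, read 0.62, 0.668 and 0.529 FPKM in KO1 and 11.8, 10.9 and 11.4 FPKM in KO2 (difference 2.94 ± 0.07). TLE2, a Groucho-family corepressor, differed by 2.68, DACT1, a modulator of WNT and TGF-beta signalling, by 2.75, and CELSR1, a planar cell polarity cadherin, by 2.66. MAPK8IP2, a scaffold of the JNK pathway, differed by 2.48 and DIRAS1, a Ras-like GTPase, by 2.48. ZNF467, a zinc finger factor, differed by 2.80. LITAF, a lysosome-associated protein, was steady within each clone, at 0.372, 0.34 and 0.351 FPKM in KO1 and 7.65, 7.6 and 7.95 FPKM in KO2, and Vector at 6.47, 6.2 and 6.12 FPKM lay near KO2. MAP2, a microtubule-associated protein of neurons, differed by 2.54 and CLMN, an actin-binding membrane protein, by 2.52. Each of these genes was called with and without KO2 replicate 3, with no overlap between the clones, since the choice required both.

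Among the genes most higher in KO1, S100A16, a calcium-binding protein, read 261, 239 and 218 FPKM in KO1 and 12.6, 11.9 and 9.62 FPKM in KO2. The difference was -4.28 ± 0.12 (adjusted p = 1.19e-05), and Vector at 5.25, 5.59 and 6.52 FPKM lay below both clones. IL11, a cytokine of the IL6 family, read 21.6, 20.1 and 19.2 FPKM in KO1 and 1.25, 0.836 and 0.277 FPKM in KO2 (difference -3.61 ± 0.20), and Vector at 0.273, 0.221 and 0.959 FPKM overlapped KO2. SERPINE2, protease nexin 1, read 18.9, 18.6 and 18.2 FPKM in KO1 and 1.08, 1.17 and 0.841 FPKM in KO2 and differed by -3.27. E2F7, an atypical E2F repressor of the cell cycle, read 39.9, 42.4 and 43.2 FPKM in KO1, 3.93, 4.23 and 3.48 FPKM in KO2 and 8.55, 9.47 and 7.57 FPKM in Vector, so the clones lay on opposite sides of the controls.

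KRT8, a keratin of simple epithelia, read 130, 118 and 112 FPKM in KO1 and 15.5, 15.4 and 17.6 FPKM in KO2 (difference -2.81 ± 0.09), and KO2 overlapped Vector at 14.8, 13.5 and 20.4 FPKM. KRT8 has many processed copies in the genome, so its level is uncertain. GAS6, the ligand of the receptor kinase AXL, read 64.4, 62 and 60 FPKM in KO1 and 9.07, 8.86 and 6.95 FPKM in KO2 (difference -2.77 ± 0.10). AXL itself, treated with the receptors below, was also higher in KO1. The remaining genes of this group were RPE65 (-3.10), a retinoid isomerase of the retina, ADGRG1 (-3.00), an adhesion G protein-coupled receptor, and OSCAR (-2.94), a collagen receptor of osteoclasts. They also held HEY1 (-2.77), a Notch target and repressor, SDC1 (-2.66), a heparan sulfate proteoglycan, and CCDC9B (-2.77). TRIB3 (-2.65), a pseudokinase of the amino acid stress response, and G0S2 (-2.58), an inhibitor of fat breakdown, were also in this group.

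**Figure D2:**
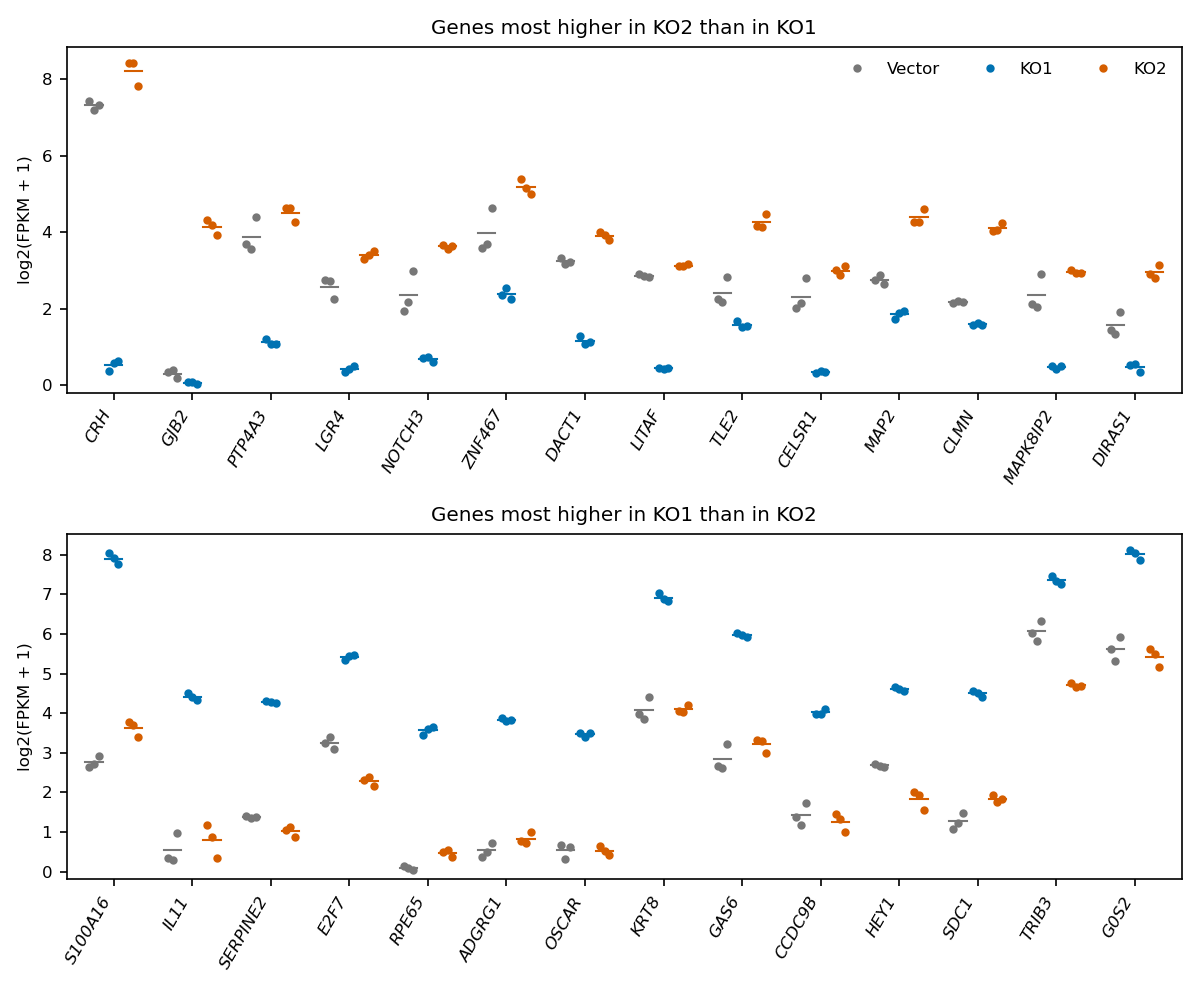
Level of 14 of the 15 genes most higher in KO2 (upper panel) and 14 of the 15 most higher in KO1 (lower panel), as log2(FPKM + 1) in each of 9 libraries; points are libraries in replicate order and short lines are group means. In every gene shown the KO1 and KO2 points are apart, while the Vector points lie between them for most genes of the upper panel and nearer to KO2 than to KO1 for most of the lower panel.

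A small set of genes was on in 1 clone and near 0 in the other. Under 0.1 FPKM in every KO1 library and at least 3 FPKM in every KO2 library were 6 genes, among them GJB2, NWD1, ONECUT3, AP001972.5 and AC117500.5. ONECUT3, a homeobox transcription factor, read 0.00753, 0.0296 and 0.0213 FPKM in KO1, 3.93, 3.62 and 3.53 FPKM in KO2 and 0, 0.0284 and 0.0342 FPKM in Vector, and so was on in KO2 alone among the 3 groups. NWD1 read 3.85, 3.77 and 4.5 FPKM in KO2 and at most 0.3 FPKM in Vector. AP001972.5 was listed at 0 in all KO1 libraries, which makes KO2 at least 143-fold higher, and AC117500.5 likewise at least 47.3-fold higher. These bounds set KO1 at a floor of 3 reads over its 3 libraries and cover counting error only.

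In the other direction 7 genes were under 0.1 FPKM in every KO2 library and at least 3 FPKM in every KO1 library: RARB, NDRG1, SFTA1P, LINC01293, AC005291.1, AC005291.2 and AL161431.1. RARB, a retinoic acid receptor, read 3.81, 3.54 and 3.26 FPKM in KO1, 0, 0 and 0.0167 FPKM in KO2 and 0.0329, 0.0479 and 0.0154 FPKM in Vector, so it was on in KO1 alone. NDRG1, a stress- and hypoxia-responsive gene, read 5.75, 5.19 and 4.82 FPKM in KO1 and 0.0461, 0.0341 and 0.0503 FPKM in KO2. SFTA1P, a long noncoding RNA of lung, was listed at 0 in all KO2 libraries but read 10.3, 10.9 and 9.69 FPKM in KO1 and 15.8, 14.8 and 9.74 FPKM in Vector. KO2 was at least 139-fold lower for it, on the same floor of 3 reads. LINC01293 was at least 98.3-fold lower in KO2, and the neighbouring pair AC005291.1 and AC005291.2 on chromosome 17 at least 49.7-fold and 71.7-fold lower.

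The amino acid response was the group of genes with the most negative median among the lists examined, except with library quality weights, where integrins were at -0.76 and it was at -0.75. When amino acids run short or the endoplasmic reticulum is stressed, cells make more of the transcription factor ATF4, which with C/EBP partners switches on genes for amino acid synthesis, import and tRNA charging. Of 32 tested members, 22 were called lower in KO2 and 1 higher, with a median of -0.83 beside -0.02 for all genes, and 38.8% of all genes called. Without KO2 replicate 3 the counts were 25 and 2. ATF4 RNA itself was not called, at 170, 162 and 152 FPKM in KO1 and 163, 156 and 113 FPKM in KO2 (difference -0.18 ± 0.15, adjusted p = 0.394). ATF4 is controlled mainly at translation, which these data do not measure. For 16 of the 23 called members the Vector mean lay between the clones, beside 3384 of all 6305 calls.

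Several of these genes hold, in the 250 bases before their start, the letters TGATGNAA on either strand, which is the form of a joint ATF4 and C/EBP site. Searched in the RefSeq promoters of build GRCh38.p14, it was present in 6 of 26 tested members with a promoter entry (23.1%), and in 3.89% of 27305 genes overall. It was present in 5 of the 16 members called lower in KO2 that had an entry. A match is a description of the letters, not evidence of binding. The list was chosen as genes of the ATF4 response, so its share beside all genes does not bear on the difference between the clones. The 5 stretches of 80 bases are shown because their genes all lay lower in KO2, with the match in capitals, in the direction of transcription. CHAC1, CEBPG and MTHFD1L lie on the plus strand, GOT1 and ASNS on the minus strand. The stretches are chr15:40953226-40953305 for CHAC1, chr19:33374033-33374112 for CEBPG, chr10:99430779-99430858 for GOT1, chr6:150866321-150866400 for MTHFD1L and chr7:97872433-97872512 for ASNS.
CHAC1: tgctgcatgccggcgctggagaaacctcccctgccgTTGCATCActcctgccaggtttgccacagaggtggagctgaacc
CEBPG: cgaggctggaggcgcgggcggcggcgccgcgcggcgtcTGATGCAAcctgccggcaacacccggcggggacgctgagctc
GOT1: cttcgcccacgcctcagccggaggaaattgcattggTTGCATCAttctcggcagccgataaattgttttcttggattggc
MTHFD1L: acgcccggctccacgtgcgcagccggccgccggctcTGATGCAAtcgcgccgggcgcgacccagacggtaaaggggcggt
ASNS: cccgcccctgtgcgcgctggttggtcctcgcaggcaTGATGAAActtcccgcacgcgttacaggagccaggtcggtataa

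CEBPG, a C/EBP partner of ATF4, read 35.3, 35.9 and 35 FPKM in KO1, 13.5, 14.2 and 14.2 FPKM in KO2 and 79.6, 73 and 57.9 FPKM in Vector (difference -1.28 ± 0.06, adjusted p = 4.56e-05). Vector was thus above both clones. GOT1, which exchanges amino groups between aspartate and glutamate, read 51.4, 50.8 and 48 FPKM in KO1 and 19.9, 19.7 and 19.6 FPKM in KO2, with Vector at 54, 48.7 and 46.9 FPKM beside KO1. MTHFD1L, a mitochondrial folate enzyme, followed it with 34.1, 33.3 and 33 and 13.7, 14.2 and 17.4 FPKM. ASNS, which makes asparagine, was low in both clones at 3.31, 2.42 and 3.03 FPKM in KO1 and 0.813, 1.2 and 1.36 FPKM in KO2 (difference -0.88 ± 0.14). CHAC1, which degrades glutathione, gave -0.78 ± 0.20 (adjusted p = 0.0234), with its lowest value of 5.85 FPKM in KO2 replicate 3. Its call was lost without any 1 of the KO1 libraries (-0.83 to -0.71, adjusted p from 0.0582 to 0.0839).

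Among the regulators of the list the differences were larger. TRIB3 read 176, 161 and 153 FPKM in KO1, 26.1, 24.5 and 24.9 FPKM in KO2 and 64.5, 55.9 and 79.3 FPKM in Vector. SESN2, a leucine sensor that restrains mTORC1, read 107, 112 and 105 FPKM in KO1 and 20.2, 20.7 and 22.1 FPKM in KO2, again with Vector between them at 35.4, 33.9 and 52.6 FPKM (difference -2.31 ± 0.07, adjusted p = 1.19e-05). PPP1R15A, or GADD34, which restores translation after stress, read 115, 105 and 100 FPKM in KO1 and 25.5, 23.4 and 11.5 FPKM in KO2, where Vector at 19.9, 17.9 and 29.7 FPKM overlapped KO2. The members not called included EIF2AK4, the kinase GCN2 that senses uncharged tRNA, at 0.06 ± 0.07. The 1 member called higher in KO2 was KLHL24, a ubiquitin ligase adaptor, at 0.97 ± 0.07. Of the 16 enzymes and secreted outputs in the list 12 were called lower and 0 higher.

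Amino acid transporters showed the same direction, with 14 of 20 tested members called lower and 2 higher and a median of -0.48 (15 and 2 without KO2 replicate 3). SLC3A2 and SLC7A5, the subunits of the LAT1 exchanger that imports leucine and other large neutral amino acids, read 108, 96.8 and 93.1 and 237, 245 and 230 FPKM in KO1. In KO2 they read 28.1, 28.1 and 18.8 and 63.1, 59.2 and 75.3 FPKM, differences of -1.97 ± 0.16 and -1.84 ± 0.10. Vector lay between the clones for both. SLC7A1, an arginine and lysine transporter, differed by -1.54 ± 0.11. The 2 transporters called higher in KO2 were SLC7A2, also a carrier of basic amino acids, at 0.61 ± 0.11, and SLC1A1, a glutamate transporter, at 0.56 ± 0.08. SLC38A9, the lysosomal arginine sensor, was not called (-0.32 ± 0.13, adjusted p = 0.0945) but was without KO2 replicate 3.

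Cytosolic tRNA synthetases, which charge tRNAs with their amino acids, were lower in KO2 in 13 of 20 members and higher in 1, with a median of -0.54 (17 and 1 without KO2 replicate 3). SARS, for serine, read 149, 139 and 136 FPKM in KO1 and 65, 60.9 and 69.4 FPKM in KO2 (difference -1.11 ± 0.08, adjusted p = 0.000216). TARS, for threonine, differed by -1.08 ± 0.10 and NARS, for asparagine, by -1.03 ± 0.07. The exception was RARS, for arginine, at 0.57 ± 0.18, where KO2 replicate 3 at 94.7 FPKM was the highest library. Its call was lost without any 1 of the KO1 libraries (0.56 to 0.60, adjusted p from 0.101 to 0.118) or KO2 replicate 2 (0.66, adjusted p = 0.0556). QARS, for glutamine, was not called (-0.02 ± 0.08, adjusted p = 0.858).

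**Figure D3:**
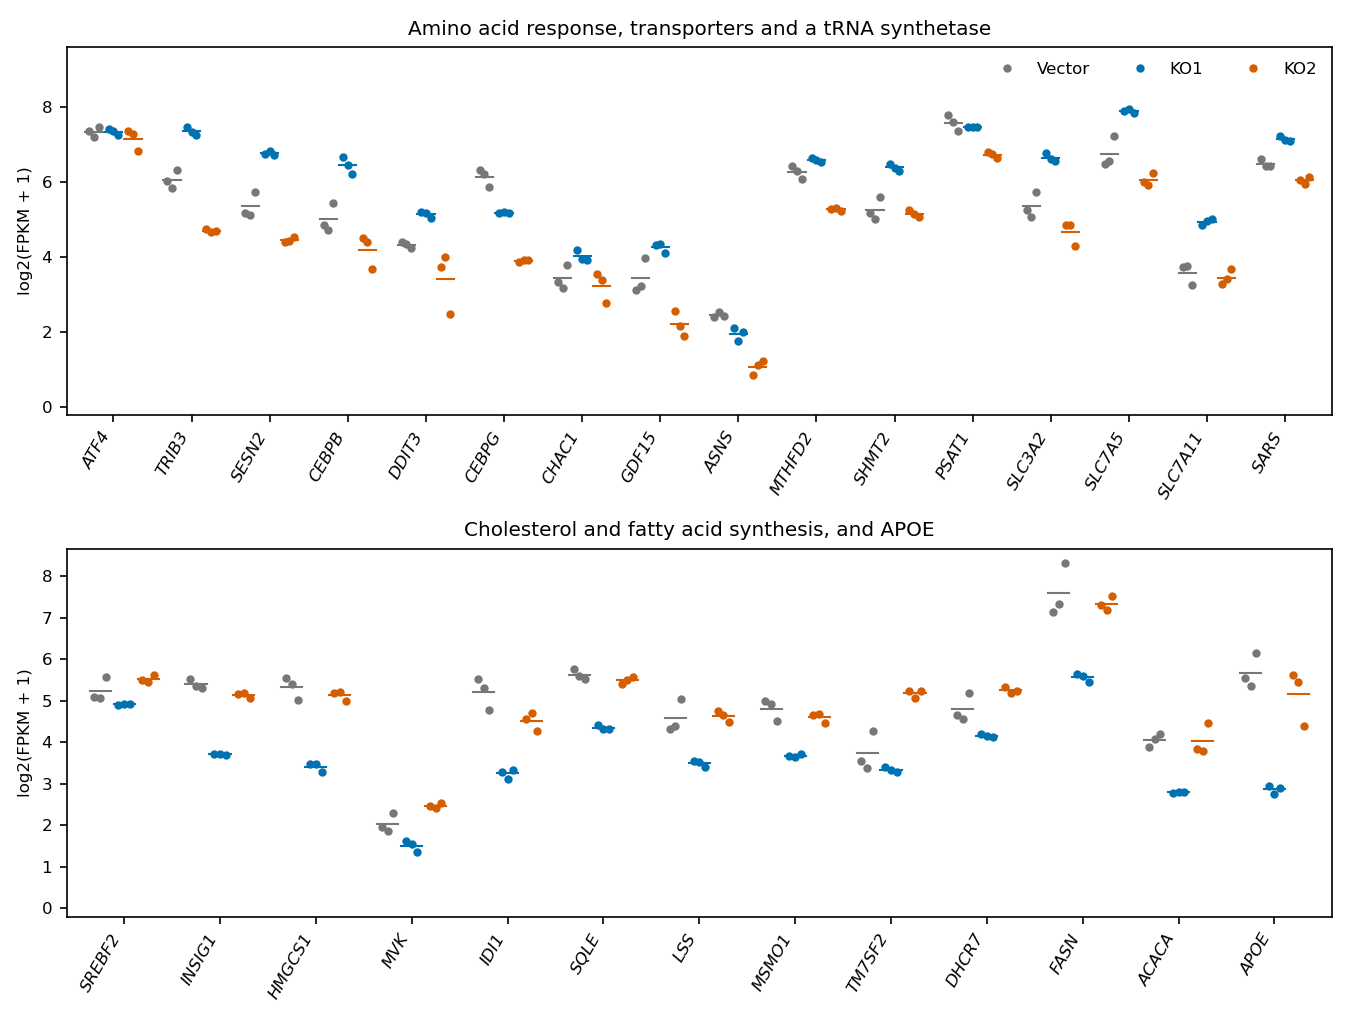
Level of amino acid response, transporter and tRNA synthetase genes (upper panel) and of sterol and fatty acid genes (lower panel), as log2(FPKM + 1) in each of 9 libraries; points are libraries in replicate order and short lines are group means. In the upper panel every gene except ATF4 was called lower in KO2, and in the lower panel every gene was called higher in KO2.

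Cholesterol synthesis had the highest median of the lists at the pseudocount of 1, whereas the WNT list was higher at pseudocounts of 0.1 (0.72 against 0.62) and 0.5 (0.62 against 0.61) and in limma-voom (0.75 against 0.62). The pathway is switched on by SREBP2 when sterol in the endoplasmic reticulum falls. Of 28 tested members, 19 were called higher in KO2 and 0 lower, with a median of 0.61 (23 and 1 without KO2 replicate 3). Both the enzymes (14 of 21 higher) and the regulators (5 of 7 higher) took part. HMGCS1, which makes the precursor of mevalonate, read 10.2, 10.1 and 8.78 FPKM in KO1, 35.2, 36.4 and 30.8 FPKM in KO2 and 45.8, 41.7 and 31.3 FPKM in Vector (difference 1.72 ± 0.09, adjusted p = 7.55e-05). KO1 was therefore the clone apart from the controls.

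TM7SF2, a late sterol reductase, read 9.65, 9.02 and 8.73 FPKM in KO1 and 36.5, 32.7 and 36.8 FPKM in KO2 (difference 1.84 ± 0.07), but its Vector level of 10.7, 9.41 and 18.5 FPKM lay nearer to KO1. INSIG1, a sterol-responsive brake on SREBP, differed by 1.43 ± 0.06, and SQLE, squalene epoxidase, by 1.14 ± 0.07. FDPS, which makes farnesyl diphosphate, was not called (0.23 ± 0.11, adjusted p = 0.166) but was called higher without KO2 replicate 3. SCAP, the escort protein of SREBP, gave 0.05 ± 0.14, and -0.11 without that library. For 10 of the 19 called members the Vector mean lay above both clones, and for 9 between them. Over all 6305 calls these counts were 1393 and 3384.

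In fatty acid synthesis 11 of 22 tested members were called higher and 3 lower, with a median of 0.29 (13 and 4 without KO2 replicate 3). FASN, fatty acid synthase, read 48.8, 47.5 and 43.1 FPKM in KO1, 157, 145 and 184 FPKM in KO2 and 141, 160 and 318 FPKM in Vector (difference 1.78 ± 0.11, adjusted p = 0.00012). ACACA, which makes its substrate malonyl-CoA, differed by 1.24 ± 0.18, and ME1, which supplies NADPH, by 1.44 ± 0.11. The 3 lower members were MID1IP1 (-0.91), an activator of ACACA, ACSL4 (-0.75), which activates arachidonate, and ELOVL1 (-0.70), an elongase.

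Lipoprotein uptake and efflux genes were higher in 13 of 24 members and lower in 5, with a median of 0.37 (16 and 5 without KO2 replicate 3). Without any 1 of the KO1 libraries 10 to 12 were higher and 2 to 3 lower, and with an equal sum of FPKM 13 and 3. APOE, an apolipoprotein of cholesterol transport, read 6.72, 5.78 and 6.51 FPKM in KO1 and 48.3, 43.2 and 20.2 FPKM in KO2 (difference 2.29 ± 0.31, adjusted p = 0.00197), with the lowest KO2 value in replicate 3. CLU, clusterin, read 2.55, 2.72 and 2.48 FPKM in KO1 and 15.3, 15.3 and 14.2 FPKM in KO2, and Vector at 1.88, 1.63 and 2.32 FPKM lay near KO1. LRP1, a large endocytic receptor, differed by 1.40 ± 0.15. Lower in KO2 were VLDLR (-1.11), a lipoprotein receptor, and NPC1 (-0.67), the lysosomal cholesterol exporter.

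Antigen presentation genes, which load peptides on MHC class I, were called higher in KO2 in 11 of 18 tested members and lower in 1, with a median of 0.48 (13 and 1 without KO2 replicate 3). HLA-B read 11.2, 10.4 and 9.39 FPKM in KO1, 30.5, 29.8 and 20.1 FPKM in KO2 and 33.3, 28.4 and 40.7 FPKM in Vector, so that KO1 was the low group. TAP1, the peptide transporter, differed by 1.09 ± 0.10. HLA genes are near copies of each other and highly variable, so their levels are uncertain. The 1 lower member was B2M, the light chain of class I molecules, at -0.37 ± 0.12 (adjusted p = 0.0453), a call lost without any 1 of the libraries except KO2 replicate 3 (-0.43 to -0.34, adjusted p from 0.0528 to 0.137). The interferon list held 19 tested targets and 7 factors, and 13 of the 26 were higher and 1 lower, with a median of 0.26. The counts were 14 and 2 without KO2 replicate 3, but 8 and 0 without any 1 of the KO1 libraries. Among the targets alone 11 were higher and 1 lower. USP18, which damps interferon signalling, read 0.177, 0.0578 and 0.0834 FPKM in KO1 and 1.09, 1.1 and 1.48 FPKM in KO2. IFIT1, an antiviral RNA-binding protein, differed by 1.0 ± 0.11 and IFI6 by 0.97 ± 0.14, whereas GBP3 was lower at -0.38 ± 0.11. The call for GBP3 was also lost without any 1 of the libraries except KO2 replicate 3 (-0.44 to -0.33, adjusted p from 0.0558 to 0.113). The abundant IFITM3 was not called (-0.37 ± 0.26, adjusted p = 0.299).

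Genes of the G2 and M phases of the cell cycle were mostly lower in KO2. Of 50 tested members 39 were called lower and 1 higher, with a median of -0.54, and without KO2 replicate 3 the counts were 45 and 2. PLK1, a kinase that drives mitotic entry, read 29.3, 25.1 and 24.2 FPKM in KO1, 8.91, 9.08 and 7.66 FPKM in KO2 and 14, 13.8 and 19.4 FPKM in Vector (difference -1.51 ± 0.10, adjusted p = 0.000152). AURKB, a kinase of the chromosomal passenger complex, differed by -1.42 ± 0.20, and CKS1B, a subunit of cyclin-dependent kinases, by -1.38 ± 0.14. In 27 of the 40 called members the Vector mean lay between the clones, beside 3384 of all 6305 calls. The 1 higher member was DLGAP5, a spindle protein on chromosome 14, at 0.39 ± 0.11, and against its chromosomal neighbours it was lower and not called (-0.17, adjusted p = 0.205). The call for DLGAP5 was also lost without any 1 of the KO1 libraries or KO2 replicate 2 (0.35 to 0.43, adjusted p from 0.0501 to 0.0931). CCNB1, cyclin B1, was not called (-0.19 ± 0.08, adjusted p = 0.103). In bulk RNA, more cells in a given state and more RNA per cell cannot be told apart, here and for every list.

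Of the S phase genes 19 of 52 members were lower and 6 higher with a median of -0.14. The share called was 48.1%, beside 38.8% of all genes and 46.1% of protein-coding genes. The counts became 24 and 7 without KO2 replicate 3, but 12 and 4 without KO1 replicate 1 or 2. With an equal sum of FPKM they were 11 and 7 (median -0.05). Replication-dependent histones were lower in 12 of 30 and higher in 1 (43.3% called), and lower in 7 without KO1 replicate 1 or 2. HIST1H2BJ read 30.9, 33.5 and 31.5 FPKM in KO1 and 7.93, 6.93 and 5.53 FPKM in KO2 (difference -2.09 ± 0.12). Histone genes are near copies with mostly unpolyadenylated transcripts, so their levels are uncertain. Of 17 tested CDK inhibitors, cyclins and RB-related genes 9 were called lower and 0 higher (52.9% called), with a median of -0.44 (11 and 2 without KO2 replicate 3). By role these were 3 of 7 inhibitors (42.9%, beside 46.1% of protein-coding genes), 2 of 4 cyclins and 4 of 6 RB-related genes. CDKN1A, the inhibitor p21, read 53.4, 53 and 48.7 FPKM in KO1 and 15.9, 14.1 and 10.9 FPKM in KO2, and Vector at 15.8, 14.7 and 19.9 FPKM lay near KO2 (difference -1.87 ± 0.13, adjusted p = 0.000199). CCND3, cyclin D3, differed by -0.82 ± 0.08.

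GADD45A, a stress gene, read 126, 116 and 114 FPKM in KO1 and 30.8, 28.6 and 12 FPKM in KO2 (difference -2.38 ± 0.33). In the BCL2 family and apoptosis list 15 of 28 members were lower and 6 higher, with a median of -0.4 (17 and 6 without KO2 replicate 3). The anti-apoptotic members were lower in 6 of 8 and higher in 0. Among the pro-apoptotic ones the directions were mixed. BBC3, or PUMA, and PMAIP1, or NOXA, were lower in KO2 (-1.15 and -1.14). BCL2L11, or BIM, was higher at 5.25, 5.36 and 5.28 FPKM in KO2 against 2.13, 1.95 and 2.07 FPKM in KO1 (difference 1.05 ± 0.07, adjusted p = 0.000139).

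The ERK pathway carries growth factor signals from receptors through RAF and MEK to the nucleus, and it switches on its own inhibitors. Of 10 tested feedback inhibitors 6 were lower and 2 higher in KO2, with a median of -0.69 (7 and 2 without KO2 replicate 3). DUSP5, a nuclear ERK phosphatase, read 49.2, 50.2 and 47.9 FPKM in KO1, 11.6, 11.5 and 8.01 FPKM in KO2 and 62, 55.2 and 68.2 FPKM in Vector (difference -2.16 ± 0.14, adjusted p = 0.000135). SPRY4 differed by -1.02 ± 0.06 and DUSP1 by -1.46 ± 0.27. In contrast SPRY1, a Sprouty inhibitor of receptor signalling, read 3.98, 4.34 and 4.64 FPKM in KO1 and 23.8, 24.4 and 17 FPKM in KO2, the highest level of the 3 groups. DUSP6, often used as a readout of ERK activity, was modestly higher in KO2 (0.38 ± 0.08, adjusted p = 0.0117). DUSP6 shares 40.5% of its exon bases with exons of another gene, which makes that value uncertain. Against its chromosomal neighbours its difference was 0.01 (adjusted p = 0.959).

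Of 24 tested transcription factors and late outputs of ERK, 13 were lower and 4 higher, with a median of -0.38 (14 and 6 without KO2 replicate 3). FOSL1, an AP-1 factor, read 197, 196 and 189 FPKM in KO1, 53.8, 48.3 and 43.5 FPKM in KO2 and 159, 149 and 196 FPKM in Vector. The immediate-early genes FOS, FOSB and EGR1 ran the other way, at differences of 1.54 ± 0.29, 0.98 ± 0.15 and 0.96 ± 0.23. For each of them KO2 replicate 3 was the lowest KO2 library. The call for EGR1 was lost without any 1 of the KO1 libraries (0.94 to 0.98, adjusted p from 0.0532 to 0.0589) or KO2 replicate 2 (0.83, adjusted p = 0.053). EMP1, a membrane protein, differed by -1.75 ± 0.08, and PLAUR, the urokinase receptor, by -1.74 ± 0.28. CCND1, cyclin D1, was not called (-0.23 ± 0.13, adjusted p = 0.209).

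Among receptor tyrosine kinases and ligands 12 of 29 were lower and 8 higher in KO2 (median -0.07), but with every library scaled to an equal sum of FPKM 10 were lower and 10 higher (median 0.03). Without KO2 replicate 3 the counts were 13 and 9. AXL read 254, 248 and 243 FPKM in KO1 and 52.6, 52.8 and 106 FPKM in KO2 (difference -1.88 ± 0.27, adjusted p = 0.00245), where replicate 3 held the highest KO2 value. HBEGF, an EGFR ligand, read 17.6, 17.2 and 16.4 FPKM in KO1 and 4.95, 4.14 and 3.17 FPKM in KO2. Higher in KO2 were FGFR4 (1.74), a fibroblast growth factor receptor, NRG1 (1.33), a neuregulin, and its receptor ERBB3 (1.32), for each of which Vector lay between the clones. EGFR was not called (-0.34 ± 0.12, adjusted p = 0.0553).

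BMP and TGF-beta genes were called higher in 9 and lower in 6 of 23 tested members, or 12 and 6 without KO2 replicate 3. NOG, the secreted BMP antagonist noggin, read 12, 11.1 and 10.6 FPKM in KO1, 55.5, 51.3 and 37.4 FPKM in KO2 and 0.578, 0.624 and 1.02 FPKM in Vector. It was thus far above the controls in both clones and higher again in KO2 by 1.99 ± 0.15. BMP4, one of the ligands noggin binds, read 0.386, 0.379 and 0.518 FPKM in KO1 and 3.66, 4.15 and 2.85 FPKM in KO2, and TGFB2 read 0.706, 0.561 and 0.804 and 4.58, 5.37 and 6.77 FPKM. TGFB2 shares 26.6% of its exon bases with exons of another gene, which makes its level uncertain. FST, the activin antagonist follistatin, went the other way (-1.59 ± 0.10), as did ID1, a BMP target, at 48.3, 41.4 and 37.7 FPKM in KO1 and 17.8, 16.4 and 8.97 FPKM in KO2.

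The WNT list had 7 of 12 tested members higher and 2 lower, with a median of 0.54 (7 and 2 without KO2 replicate 3). All 5 tested inhibitors were called higher in KO2. DKK1, a secreted inhibitor, read 0.426, 0.251 and 0.295 FPKM in KO1, 3.8, 4.27 and 2.66 FPKM in KO2 and 2.01, 1.9 and 1.32 FPKM in Vector. TCF7, a nuclear effector, was higher by 1.16, whereas LEF1, its relative, was lower (-1.17), at 5.58, 4.91 and 5.02 FPKM in KO1 and 1.77, 2.06 and 1.44 FPKM in KO2. The YAP and TEAD list held 18 tested targets and 6 factors, and 6 of the 24 were called higher and 6 lower. Among the targets alone 4 were higher and 4 lower (44.4%, beside 46.1% of protein-coding genes). The list counts became 8 and 3 with an equal sum of FPKM, and 8 and 9 without KO2 replicate 3. They were 4 and 3 without KO1 replicate 1 or 2. CYR61, a standard target, read 305, 282 and 261 FPKM in KO1 and 310, 301 and 96.1 FPKM in KO2, so that replicate 3 alone was low. CYR61 was not called (-0.44 ± 0.44, adjusted p = 0.477), and without replicate 3 its difference was 0.11 (adjusted p = 0.254).

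Matrix genes differed in most tested members but not in 1 direction. Of 30 collagens and matrix glycoproteins, 13 were lower and 11 higher, 24 of 30 called beside 38.8% of all genes (15 and 12 without KO2 replicate 3). TNC, tenascin C, read 36.8, 37.1 and 36.5 FPKM in KO1, 6.04, 5.39 and 6.65 FPKM in KO2 and 0.845, 1.03 and 1.13 FPKM in Vector (difference -2.43 ± 0.08, adjusted p = 1.55e-05). LOXL1, which crosslinks elastin, differed by -1.55 ± 0.09, and 5 of 6 laminin chains were lower, among them LAMB3 (-1.28 ± 0.10). Higher in KO2 were EFEMP1 (1.93), a fibulin, FBLN1 (1.66) and TGFBI (1.45). Vector lay below both clones for 13 of the 24 called, beside 1528 of all 6305 calls.

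Matrix proteases and plasminogen genes were lower in 9 and higher in 4 of 21 (10 and 5 without KO2 replicate 3), and SERPINE2 above belongs to this list. MMP14, a membrane collagenase, read 160, 145 and 138 FPKM in KO1, 44, 40 and 26.3 FPKM in KO2 and 16.7, 15 and 22.8 FPKM in Vector. MMP17, of the same membrane family, ran the other way with 1.44, 1.52 and 1.7 and 9.96, 9.19 and 8.52 FPKM. TIMP1, an inhibitor of these enzymes, was not called (0.20 ± 0.14).

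Integrins, the matrix receptors, were lower in 8 and higher in 4 of 14 tested, with a median of -0.7, and the counts were equal without KO2 replicate 3. Without KO1 replicate 1, KO2 replicate 1 or KO2 replicate 2, 2 were higher and 8 lower. ITGA3, a laminin receptor chain, read 230, 224 and 209 FPKM in KO1, 73.4, 67.3 and 87.4 FPKM in KO2 and 90.1, 95.4 and 148 FPKM in Vector (difference -1.53 ± 0.11, adjusted p = 0.000217). ITGA5, the fibronectin receptor chain, differed by -1.29 ± 0.08. ITGA4 (0.77 ± 0.09) and ITGB5 (0.53 ± 0.06) were higher. Of 5 tested keratins 4 were lower and 0 higher. KRT18, the partner of KRT8, read 359, 321 and 314 FPKM in KO1 and 86.4, 87.2 and 103 FPKM in KO2, and like KRT8 it has many processed copies. INA, a neuronal intermediate filament, was the exception in its list at 16.6, 16.5 and 15.5 FPKM in KO1 and 71.7, 73.2 and 94.2 FPKM in KO2. VIM, vimentin, was not called (-0.22 ± 0.15, adjusted p = 0.305) but was called lower without KO2 replicate 3.

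Cell junction genes were higher in 12 of 24 and lower in 3, with a median of 0.23 (12 and 7 without KO2 replicate 3). Besides GJB2 these included TJP3, a tight junction scaffold, at 0.594, 0.437 and 0.309 FPKM in KO1 and 5.87, 5.76 and 6.39 FPKM in KO2, and CLDN3, a claudin, at 0, 0 and 0.0464 FPKM and 1.69, 2.54 and 2.47 FPKM. CLDN1 (-0.94 ± 0.07), the desmosomal PKP2 (-0.78 ± 0.07) and CDH2 (-0.62 ± 0.10), N-cadherin, were lower. Among neural guidance receptors and ligands 12 of 28 were higher and 9 lower (14 and 9 without KO2 replicate 3, and 11 and 5 without KO1 replicate 1 or 2). The semaphorins SEMA3A and SEMA3C were higher (1.77 and 1.74), while the neuropilin receptors NRP1 and NRP2 were lower (-1.17 and -1.42). NRP1 read 0.459, 0.461 and 0.469 FPKM in Vector, 19.7, 19.4 and 18.6 FPKM in KO1 and 7.07, 7.46 and 9.66 FPKM in KO2, so both clones lay above the controls.

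Developmental transcription factors were called higher in 11 and lower in 11 of 35 (median -0.01), and 12 and 10 with an equal sum of FPKM (median 0.07). Without KO2 replicate 3 the counts were 12 and 12. NR2F1, an orphan nuclear receptor, read 4.79, 3.88 and 3.61 FPKM in KO1 and 25.4, 26 and 19.9 FPKM in KO2 (difference 2.28 ± 0.13, adjusted p = 0.000102). FOXA2, a factor of foregut endoderm, was listed at 0 in all KO1 libraries and read 1.33, 1.41 and 1.73 FPKM in KO2, at least 66.6-fold higher on the floor of 3 reads over KO1. LHX6 was higher by 1.07. SOX9, a progenitor factor, read 141, 142 and 132 FPKM in KO1, 67.1, 69.1 and 61.9 FPKM in KO2 and 29.8, 29.9 and 32.1 FPKM in Vector, and HOXB9 (-1.34) and GATA6 (-1.07) were also lower.

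**Figure D4:**
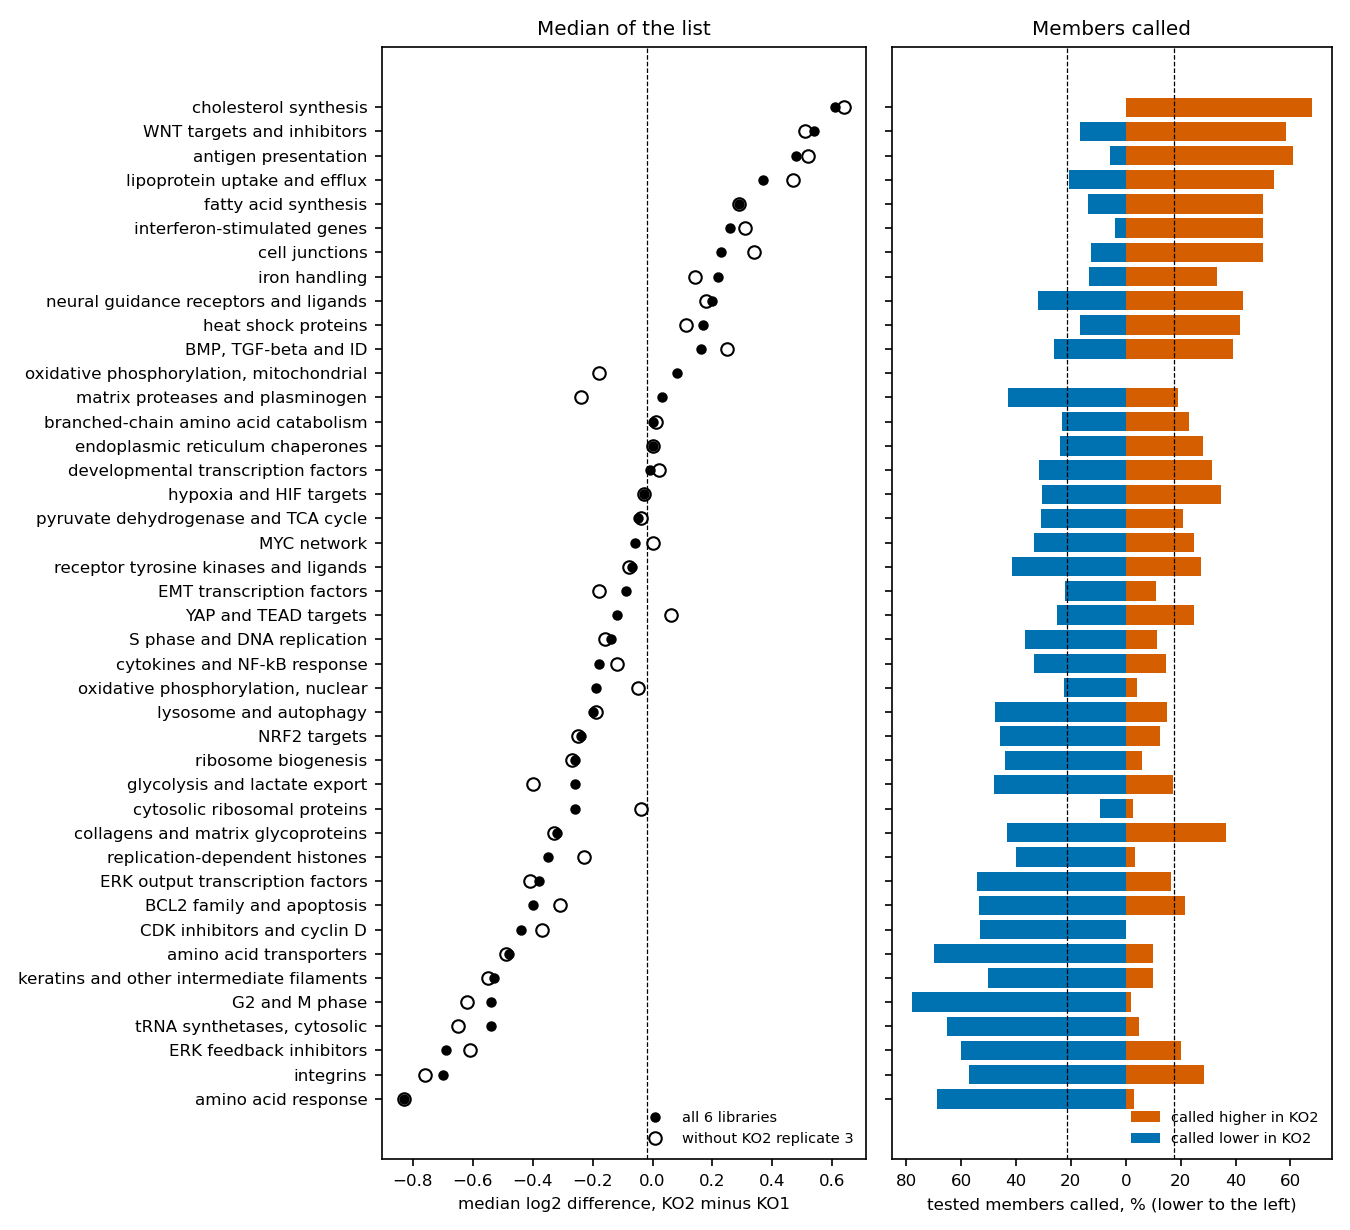
For each of 42 gene lists with at least 5 tested genes, the median log2 difference of KO2 minus KO1 with all 6 libraries (filled) and without KO2 replicate 3 (open) on the left, and the percent of tested members called higher (right of 0) and lower (left of 0) on the right. Dashed lines mark the median of all 16237 genes and the shares called among them; cholesterol synthesis is at the top and the amino acid response at the bottom.

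In glycolysis and lactate export 11 of 23 members were lower and 4 higher, with a median of -0.26. The counts were 16 and 5 without KO2 replicate 3, but 7 and 2 without KO1 replicate 1 or 2, 8 and 2 without KO1 replicate 3, and 7 and 5 with an equal sum of FPKM. Besides HK2, SLC16A3, the lactate exporter MCT4, read 34.9, 33.3 and 29.8 FPKM in KO1 and 15.8, 13.4 and 12 FPKM in KO2 (difference -1.20 ± 0.11, adjusted p = 0.000537). SLC2A1, the glucose transporter GLUT1, read 22.2, 20.9 and 18.8 and 10.1, 8.16 and 8.79 FPKM, with Vector at 10.4, 9.07 and 13.5 FPKM near KO2. PFKFB4, a regulator of glycolytic flux, was higher (0.57 ± 0.08). GAPDH and ENO1, the most abundant members, were not called (-0.35 ± 0.18 and -0.37 ± 0.14) but were called lower without KO2 replicate 3.

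In branched-chain amino acid catabolism, where BCKDK acts, 6 of 26 tested members were higher and 6 lower, with the edited gene BCKDK itself among the lower. That share of 46.2% stood beside 38.8% of all genes and 46.1% of protein-coding genes. The counts were 7 and 6 without KO2 replicate 3, and 8 and 3 with an equal sum of FPKM. They were 3 and 3 without KO1 replicate 2, and 3 and 4 without KO1 replicate 3. BCAT1, the cytosolic transaminase of the first step, read 34.1, 34.9 and 34.7 FPKM in KO1 and 12.7, 13 and 19.8 FPKM in KO2 (difference -1.17 ± 0.16, adjusted p = 0.00227), and BCKDHB, a subunit of the dehydrogenase, differed by 0.39 ± 0.12. The call for BCKDHB was lost without any 1 of the libraries except KO2 replicate 3 (0.31 to 0.42, adjusted p from 0.0892 to 0.121). PPM1K, the phosphatase that opposes BCKDK, was lower (-0.40 ± 0.10), a call lost without any 1 of the KO1 libraries (-0.41 to -0.39, adjusted p from 0.0613 to 0.0717). In the pyruvate dehydrogenase and TCA cycle list 6 of 29 were higher and 9 lower (median -0.05). The share called was 51.7%, beside the same 38.8% and 46.1%. The counts turned to 9 higher and 6 lower with an equal sum of FPKM (median 0.06), and were 9 and 10 without KO2 replicate 3. IDH2, mitochondrial isocitrate dehydrogenase, read 1.92, 1.46 and 1.75 FPKM in KO1 and 6.92, 7.1 and 7.13 FPKM in KO2, and IDH3B, a subunit of another isocitrate dehydrogenase, differed by -0.82 ± 0.09. PDP1, which activates pyruvate dehydrogenase, was higher at 1.08 ± 0.07.

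With all 6 libraries, oxidative phosphorylation and ribosomal protein genes were called less often than the 38.8% of all genes, as a description with no test. Their counts moved with several settings. Of 71 nuclear oxidative phosphorylation genes 16 were lower and 3 higher (26.8% called, median -0.19). Without KO2 replicate 3, 21 were lower and 14 higher (median -0.05), while 49.1% of all genes were called. The nuclear genes were then not called less often than all genes. With an equal sum of FPKM 8 were lower and 4 higher, and without KO1 replicate 1 or 2 also 8 were lower. None of the 13 mitochondrially encoded genes was called by limma or by limma-voom on recovered reads, and 0 had an unadjusted p under 0.05, at a median of 0.08. Without KO2 replicate 3, 3 of them were lower at a median of -0.18. Of 75 cytosolic ribosomal protein genes 7 were lower and 2 higher (12.0% called) at a median of -0.26, which became 14 lower and 10 higher at -0.04 without that library. Only 1 was lower without any 1 of the KO1 libraries or with an equal sum of FPKM, 3 without KO2 replicate 2, and 0 against chromosomal neighbours. RPS29, on chromosome 14, was the member with the largest rise, at 6.76, 6.63 and 7.3 FPKM in KO1 and 15, 14.3 and 16.2 FPKM in KO2. Ribosomal protein genes have many processed copies, so their levels are uncertain. Of 34 ribosome biogenesis genes 15 were lower and 2 higher (median -0.26), and 20 and 2 without it, with BYSL at -0.89 ± 0.08 and DKC1, which pseudouridylates ribosomal RNA, at -0.74 ± 0.09.

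In the MYC network MXD1, an antagonist that competes with MYC for MAX, read 12.1, 11.6 and 12.5 FPKM in KO1, 2.11, 2.81 and 1.81 FPKM in KO2 and 6.6, 6.68 and 5.36 FPKM in Vector, while its relative MXD4 was higher in KO2 (0.88 ± 0.07). The NRF2 list held 20 tested targets and 4 factors, and 11 of the 24 were lower and 3 higher. Among the targets alone 9 were lower and 3 higher. The list counts were 15 and 4 without KO2 replicate 3, and 7 and 3 without KO2 replicate 2. They were 6 and 3 without KO1 replicate 1 or 2. SLC7A11, the cystine importer shared with the amino acid response, read 28.1, 30.1 and 31.2 FPKM in KO1 and 8.73, 9.61 and 11.8 FPKM in KO2, and GCLM, of glutathione synthesis, differed by -0.95 ± 0.08. TXNRD1, thioredoxin reductase, ran the other way at 48.9, 51.7 and 51.8 FPKM in KO1 and 109, 109 and 90.8 FPKM in KO2. Hypoxia genes were called 8 higher and 7 lower of 23 (median -0.03), the same counts as without KO2 replicate 3, and 8 and 6 with an equal sum of FPKM (median 0.08). Without KO2 replicate 1 or any 1 of the KO1 libraries 5 were higher and 5 or 6 lower. EPAS1, or HIF2 alpha, read 8.71, 8.67 and 8.54 FPKM in KO1, 0.752, 0.749 and 0.863 FPKM in KO2 and 1.26, 1.39 and 1.55 FPKM in Vector. BNIP3L, a mitophagy receptor, was higher by 0.89.

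The heat shock list held 22 tested chaperones and 2 factors. Of these 24, 10 were higher and 4 lower (11 and 7 without KO2 replicate 3). HSPB1, a small chaperone, read 99.7, 90.6 and 83 FPKM in KO1 and 248, 235 and 167 FPKM in KO2 (difference 1.22 ± 0.17). HSPA1A and HSPA1B, the inducible HSP70 genes, were higher by 1.22 and 1.18. They are near-identical copies, so the split between them is uncertain. The endoplasmic reticulum list held 20 tested chaperones and 5 stress sensors. Of these 25, 7 were higher and 6 lower (52.0% called, beside 46.1% of protein-coding genes). Without KO2 replicate 3 the counts were 10 and 8. Among the chaperones alone 7 were higher and 4 lower, with PDIA4 at 0.93 ± 0.12 and HERPUD1 at -0.76 ± 0.13. Lysosome and autophagy genes were lower in 19 and higher in 6 of 40. The counts were 19 and 9 without KO2 replicate 3, 12 and 4 without KO1 replicate 1 or 2, and 11 and 8 with an equal sum of FPKM (median -0.10 against -0.20). Among the 13 autophagy genes 10 were lower and 1 higher. MAP1LC3B, the autophagosome protein LC3B, read 50, 45.7 and 48.7 FPKM in KO1, 23.2, 23.1 and 21 FPKM in KO2 and 66.8, 59.1 and 47.3 FPKM in Vector. Of the remaining lists, cytokines and NF-kB response genes were lower in 9 and higher in 4 of 27 (10 and 4 without KO2 replicate 3). That was 48.1% called, beside 38.8% of all genes and 46.1% of protein-coding genes. Iron handling genes were higher in 5 and lower in 2 of 15, or 46.7% beside 38.8% of all genes and 46.1% of protein-coding genes. Without KO2 replicate 3 the counts were 8 and 2, and with an equal sum of FPKM 9 and 2. Transcription factors of the epithelial-mesenchymal transition were higher in 1 and lower in 2 of 9, or 33.3% (1 and 4 without KO2 replicate 3). With each autophagy gene measured against the median of its chromosomal neighbours, 6 of the autophagy genes were lower and 0 higher.

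Calls were spread unevenly over the chromosomes. On chromosome 14, 239 of 506 tested genes were higher and 24 lower in KO2, with a median of 0.34, and on chromosome 22 there were 152 of 372 higher and 15 lower (median 0.33). Chromosome 8 (215 higher and 58 lower of 600) and chromosome 15 (154 and 58 of 541) leaned the same way. On chromosome 13 only 10 of 274 genes were higher and 142 lower (median -0.39), and on chromosome 16, which carries BCKDK, 46 of 716 were higher and 285 lower (median -0.28). Over all chromosomes 17.5% of genes were higher and 21.4% lower. BCKDK's own difference stood beside a neighbour median of -0.27. In a fit with the neighbours' median subtracted within each library, it was -0.66 (adjusted p = 0.00468).

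The neighbour median of a gene is the median difference of the tested genes within 5 Mb of it, given where there are at least 10. It reached 0.5 in size, on the same side, over at least 10 tested genes in a row in 6 stretches, and shorter runs are not given. The stretches were picked by these differences, so their medians and counts describe them and test nothing. On chromosome 13 a stretch from 23730189 to 32778019 held 32 tested genes with a median of -0.62, of which 23 were lower and 0 higher, and one from 109269634 to 114337626 held 35 with a median of -0.56. On chromosome 14 the stretches from 29576479 to 43300595 and from 45290036 to 58551289 had medians of 0.6 and 0.54, with 31 of 43 and 52 of 77 genes higher. The start of chromosome 16, up to 5097808, held 168 tested genes with a median of -0.54, of which 101 were lower and 9 higher. The sixth lay at the start of chromosome 8, up to 1801711, with 11 tested genes and a median of 0.56. Coordinates are on hg38 as in GENCODE 29.

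Relative to Vector, KO1 was the clone that lay farther off in 5 of these stretches. Its median was 0.4, 0.57, -0.48, -0.43 and 0.36, while the median of KO2 was -0.17, 0.07, 0.12, 0.09 and -0.13. At the start of chromosome 8 KO2 lay farther off (0.43 against -0.06 for KO1). Differences from Vector were not tested, and which clone changed cannot be told from them. These files measure RNA and hold no measure of DNA. With the neighbours' median subtracted within each library, 2509 genes were called higher and 2665 lower. Nothing was subtracted for genes with under 10 neighbours. In that setting the amino acid response list had 22 members lower and 1 higher, cholesterol synthesis 21 higher and 0 lower, and the G2 and M phase list 35 lower and 0 higher.

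**Figure D5:**
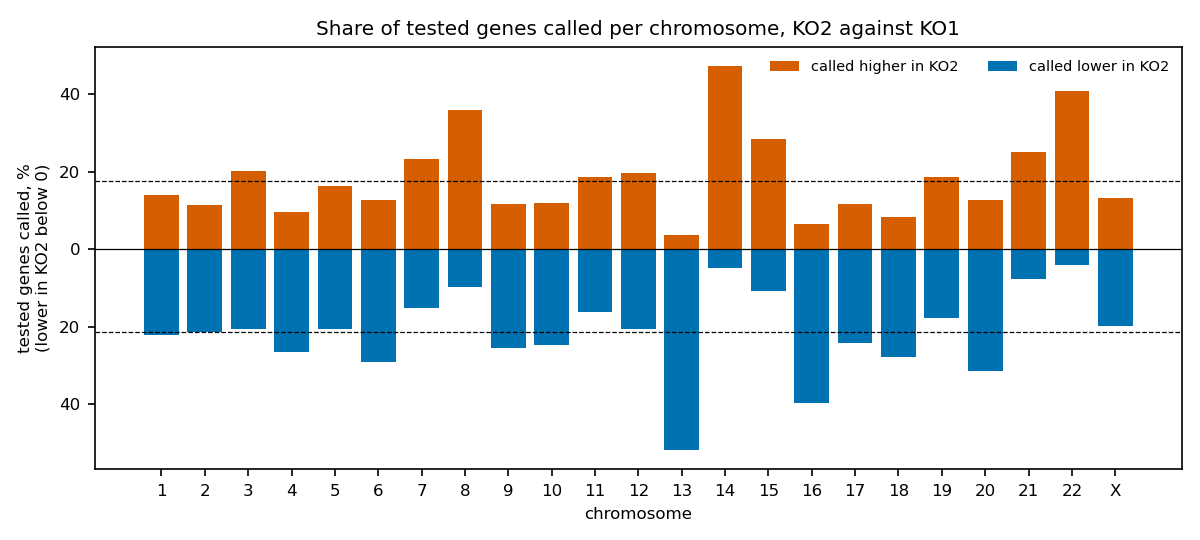
Percent of tested genes on each chromosome called higher (above 0) and lower (below 0) in KO2 than in KO1; dashed lines mark the shares over all genes, 17.5% and 21.4%. Chromosomes 14, 22 and 8 have the tallest bars above 0, and chromosomes 13 and 16 the longest below it.

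Where Vector lies shows which clone was farther from these controls, not which clone changed. Over all tested genes the Vector mean lay between the clone means for 34.0%. It did so for 55% of the genes called higher and 52.6% of those called lower in KO2, as a description with no test. Among the 1078 calls of at least 1 log2 unit, KO1 was farther from Vector in 620 and KO2 in 458. For the 524 lower genes KO1 was farther in 356 and KO2 in 168, and for the 554 higher genes the split was 264 and 290. In 177 of the higher and 175 of the lower genes every KO1 library lay on one side of all Vector libraries and every KO2 library on the other.

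The label of lung adenocarcinoma was set beside marker genes, which cannot decide the histology of the line. Of the 17 lung epithelial markers 10 were under 0.5 FPKM in all 6 clone libraries, and NKX2-1, the lineage factor of lung, was at most 0.039 FPKM. The summed level of the list was 431 to 494 FPKM in KO1 and 110 to 128 FPKM in KO2, carried by KRT18 and KRT8. Of its 6 tested members 2 were called higher in KO2 and 3 lower. Most endothelial and immune markers were at or near 0 in both clones. The summed FPKM of 13 immune markers was 0.693 to 0.749 in KO1 and 0.808 to 0.938 in KO2, and of 10 endothelial markers 0.654 to 0.847 and 0.865 to 1.1. The endothelial factor ERG was listed at 0 in every KO1 library and read 0.604, 0.588 and 0.57 FPKM in KO2, most of that sum, and lay under the minimum for testing. Of 12 fibroblast markers 9 were under 0.5 FPKM in every clone library, with sums of 1.22 to 2.01 and 1.88 to 2.59 FPKM. Of 10 neuroendocrine markers 6 were under 0.5 FPKM in every clone library. The sum was 412 to 490 FPKM in KO1 and 144 to 219 FPKM in KO2, carried by UCHL1, a ubiquitin hydrolase (460, 446 and 382 FPKM in KO1 and 193, 190 and 127 FPKM in KO2). The sum does not stand for the list, since 2 of its 4 tested members were called higher in KO2 and 2 lower. CHGB read 4.01, 3.63 and 3.65 FPKM in KO1 and 7.24, 7.35 and 5.6 FPKM in KO2. SYP read 0.421, 0.436 and 0.454 FPKM in KO1 and 2.05, 1.69 and 1.24 FPKM in KO2.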

How the data were processed

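RNA-seq values of 9 H1299 libraries (3 Vector, 3 KO1, 3 KO2) were taken as the authors deposited them, in FPKM for 58735 genes. Per the submitters' processing notes, CASAVA 1.6, HISAT2 2.0.5, featureCounts 1.5.0-p3 and build hg38 were used; the sources used here do not give counting options, strand or the handling of reads with several matches. Gene IDs and names were matched to GENCODE 29. Of all FPKM values, 100.0% gave whole reads within 0.02 reads once exon length was used, and these reads served only for depth, replicate checks and an alternative fit.

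Values were taken as log2(FPKM + 1), a pseudocount of 1, and a gene was tested when its 6 knockout values averaged 0.5 FPKM or more. KO2 was compared with KO1 in limma 3.58.1 (R 4.3.3) with a trended prior, two-sided, with Benjamini-Hochberg adjustment over 16237 genes; Vector was not in the fit. The procedure was tested on simulated data. Fold bounds against libraries at 0 used a floor of 3 reads. Promoters came from RefSeq on GRCh38.p14. Tables and plots were made with Python 3.11.15.

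Members and gene lists were chosen with earlier results of these data known. Named were the genes of the series title, the 15 genes most higher and the 15 most lower among protein-coding calls that kept their call without KO2 replicate 3, had at least 5 FPKM in the higher clone and did not overlap, list members with large or no difference, and genes on in 1 clone only. CEBPG, GOT1, MTHFD1L, ASNS and CHAC1 were named for their promoter letters, and INSIG1, SQLE, BCAT1, BCKDHB, PPM1K, UCHL1 and the genes added to the plot of pathway levels were chosen after their values were seen. Results for some genes are not reported here. Alternatives changed the pseudocount, filter, scaling, libraries, prior, weights, replicate block, count model and position correction. Same-numbered libraries of the clones had correlations of deviations of 0.139, -0.038 and 0.1, so the numbers were not taken as pairs.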

Additional observations from a re-analysis of the deposited data

Results flagged for a closer look

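Among the title genes and the genes with the largest differences that are described above, 17 had every KO1 library on one side of all Vector libraries and every KO2 library on the other. Apart from the title genes, these were chosen for large differences between the clones, which makes opposite sides of Vector more likely. The counts among all calls of at least 1 log2 unit are given above, and the share over all genes tested is not given. The difference between the clones was itself called by limma for each, while the differences from Vector were not tested, and both clones are set against the same 3 Vector libraries. Lying above Vector in KO2 and below it in KO1 were CRH (7.71 between the clones, from -6.81 in KO1 and 0.90 in KO2 relative to Vector), GJB2 (4.09), LGR4 (2.97), NOTCH3 (2.94), ZNF467 (2.80) and DACT1 (2.75). The same held for LITAF (2.69), TLE2 (2.68), CELSR1 (2.66), MAP2 (2.54), CLMN (2.52), MAPK8IP2 (2.48) and DIRAS1 (2.48). Lying above Vector in KO1 and below it in KO2 were SERPINE2 (-3.27 between the clones, from 2.91 in KO1 and -0.36 in KO2), E2F7 (-3.14), HEY1 (-2.77) and TRIB3 (-2.65). GJB2 (-0.24 in KO1 and 3.84 in KO2) lay mainly above Vector in KO2, and LITAF (-2.42 and 0.27) mainly below it in KO1.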

How the results depend on the processing

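In 18 other settings the counts of called genes stayed within 1.5 times of 2836 higher and 3469 lower except as follows. Library quality weights gave 4491 higher and 5311 lower. Leaving out 1 library at a time gave 1904 to 3551 higher and 2300 to 4418 lower, with the lowest counts without KO1 replicate 2 and the highest without KO2 replicate 3. The cause was not tested. Calls that turned direction numbered 0, except for 2 after subtraction of the neighbours' median. The fit with a replicate block called 2584 higher and 3280 lower; same-numbered libraries correlated best with each other for numbers 1 and 3 but not 2, a hint from the data and not the design. An equal sum of FPKM moved the median of all genes from -0.02 to 0.065. Of 181 named genes 164 were called, and 155 of them kept call and direction in every setting. Of 17 uncalled genes 11 were called in some setting. Among 774 list medians from 43 lists, 96 moved by more than the spread between replicates, and 0 turned among the 21 lists with a median at least 0.25 from 0. Signs turned for BCLAF1 (0.02 with an equal sum, 0.23 against neighbours), CYR61 (0.07 with quality weights, -0.73 to 0.11 leaving out 1 library), DLGAP5 (-0.17 against neighbours) and EIF2AK4 (-0.01 with weights, -0.12 against neighbours). They also turned for QARS (0.09 with an equal sum, 0.04 against neighbours, -0.06 to 0.04 leaving out 1 library) and SCAP (-0.14 with weights, -0.11 to 0.16 leaving out 1 library). With 3 libraries of 1 clone on each side, low genes and small differences are the least certain.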
